A study of Mus musculus with 2 samples.

Results

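Autophagy is the process by which a cell wraps part of its own content in a double membrane, the autophagosome, and delivers it to lysosomes for breakdown. The ULK1 kinase complex starts it, a complex around the lipid kinase VPS34 marks the site, and 2 ubiquitin-like conjugation systems attach proteins of the ATG8 family to the growing membrane. Cargo receptors such as p62 bind both the cargo and ATG8 proteins, and mitophagy is the form that removes mitochondria. In brown fat, a tissue packed with mitochondria, mitophagy is known as a route by which thermogenic cells lose mitochondria when heat is no longer needed.

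Transcripts of 39 autophagy and mitophagy genes were followed in interscapular brown adipose tissue (iBAT), chosen by symbol from a list that covers 8 roles in the pathway. All 39 were among the 27179 genes in the deposited count tables. The 2 libraries came from untreated C57BL/6N mice aged 20 days, 1 library from wild-type and 1 from Ucp1-KO animals. Ucp1-KO animals lack uncoupling protein 1 (UCP1), the mitochondrial protein through which brown fat releases energy as heat. Each library pooled the tissue of 3 animals described as male, so there were no replicates to give a p-value or a standard deviation, and what is compared is a pair of libraries. In whole tissue, fewer cells of a type and less RNA per cell cannot be told apart.

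The wild-type library held 52950913 counts and the Ucp1-KO library 53216727. Normalised counts are the deposited counts divided by a size factor per library. The log2 ratio is that of Ucp1-KO over wild-type normalised counts, each with 0.5 added. Where 2 counts of a gene are given, the wild-type count comes first. A range in brackets after a log2 ratio or a share is an exact 95% interval that covers counting error only. Ucp1 itself had 366473 wild-type and 37853 Ucp1-KO counts, a log2 ratio of -2.98. Of 9 brown adipocyte markers the other 8 were above 0 with the size factors used here. Not all of them stay above 0 with scaling to total counts, which lowers every log2 ratio by 0.31. The libraries also differed in features other than the deletion. All 12 skeletal muscle markers were lower in Ucp1-KO by 2-fold or more, their summed share of the counts being 0.558% against 0.0642% with none at 0. All 7 endothelial markers were lower, with 0.216% against 0.106% of the counts and none at 0. The genes Eif2s3y, Kdm5d, Uty and Ddx3y of the Y chromosome had 0 counts in the wild-type library, which goes against the description as male, and 491 to 3446 in the Ucp1-KO library. The part of muscle, vessel or sex differences in the values below was not tested.

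As a set, the autophagy and mitophagy genes differed little between the genotypes. Their median log2 ratio was 0.06, with the quartiles at -0.22 and 0.18, beside a median of -0.0016 and quartiles of -0.39 and 0.35 over the 15212 genes whose normalised counts averaged 10 or more. Of the 39 genes 21 were above 0 and 18 below. The counting interval lay above 0 for 11 of them and below 0 for 14, and it held 0 for the remaining 14. Of the 15212 genes it lay above 0 for 4791 and below 0 for 4641, and it held 0 for 5780, so such intervals were common among all genes. Together the 39 genes held 140902 counts (0.266% of the library) in wild-type and 122898 (0.231%) in Ucp1-KO. The library here includes counts of the mitochondrial genome, 22.4% in wild-type and 36.7% in Ucp1-KO. The log2 ratio of the summed normalised counts of the 39 genes was 0.10. No gene was at least 2-fold higher, where the share of all genes was 7.42%. Only Atg101 was at least 2-fold lower, 1 of 39, where the share of all genes was 9.55%. At the smaller size rule of 1.5-fold, a log2 ratio of 0.58, Gabarapl1, Sqstm1 and Optn were higher, 3 of 39 or 7.69% beside 15.4% of all genes. Atg101 and Pik3c3 were lower, 2 of 39 or 5.13% beside 17.9% of all genes. All of the 39 genes had a mean normalised count of at least 555, so a second background was taken from the 8557 genes with a mean of at least 500. In that background the shares past the 1.5-fold rule were 9.87% higher and 9.23% lower, and those past the 2-fold rule 2.61% and 3.31%. The median there was 0.04, with the quartiles at -0.23 and 0.30. The counting interval lay above 0 for 3450 of the 8557 genes and below 0 for 2837, and it held 0 for 2270. Against either background the set as a whole held no excess of genes past a size rule.

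**Figure D1:**
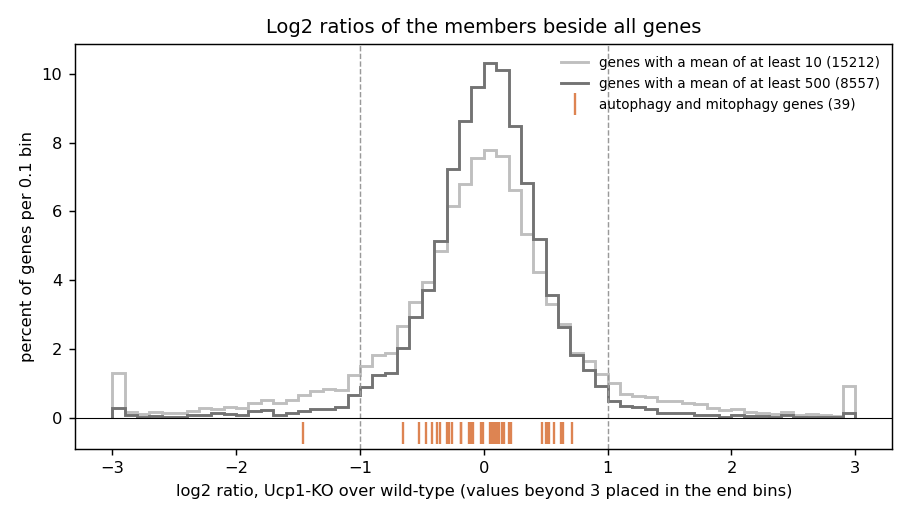
Distribution of log2 ratios, Ucp1-KO over wild-type, as the percent of genes in each bin of 0.1; the light line shows the 15212 genes averaging 10 or more normalised counts, the dark line the 8557 genes with a mean of at least 500, and the orange ticks the 39 autophagy and mitophagy genes. The ticks run from Pik3c3 at -0.65 to Gabarapl1 at 0.71 within the central peak, with Atg101 alone outside it at -1.46.

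Reads that fit several genes are a further limit. The 50-base stretches of each canonical transcript were compared with transcripts of other genes on both strands. Of the 39 genes 13 share at least 20% of them and 11 share none. From 62.8% down to 21.9%, the 13 are Atg4a, Atg9a, Atg13, Becn1, Pink1, Atg4c, Map1lc3b, Atg4d, Bnip3, Sqstm1, Bnip3l, Gabarapl1 and Atg3. Some of the other genes are not listed by symbol in the deposited counts, such as Gm29253 for Atg9a, Gm70302 for Atg4c and Gm45507 for Bnip3. The values also depend on how the libraries were scaled. The 15 genes of the mitochondrial genome took 22.4% of all counts in wild-type iBAT, against 36.7% in Ucp1-KO iBAT. Scaling to total counts therefore placed the median of all genes at -0.31 and that of the autophagy and mitophagy genes at -0.25, and log2 ratios below are relative to the typical gene. Under that scaling 8 of the 39 were above 0, namely Rb1cc1, Atg3, Atg10, Atg12, Gabarapl1, Sqstm1, Optn and Pink1, and genes with a smaller positive log2 ratio below, such as Bnip3, Wipi2 and Tfe3, turned negative. Gabarapl1, Sqstm1 and Optn stayed above 0 and Atg101 and Pik3c3 below 0 under each of the 4 scalings that were tried. The sentences below that give a share of the counts of a role group do not depend on the scaling at all.

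The initiation complex showed the widest spread. Its 5 genes had a median log2 ratio of -0.12 and ran from -1.46 to 0.57. Atg101, which encodes a subunit that binds and stabilises ATG13, had 1461 wild-type and 430 Ucp1-KO counts. Its log2 ratio of -1.46 [-1.69 to -1.24] left 36.2% of the wild-type level. In GRCm39 the gene spans positions 101181252 to 101188834 of chromosome 15, plus strand, and has 3 exons in its canonical transcript. No stretch of 50 bases of that transcript occurs in a transcript of another gene in GENCODE. Rb1cc1 encodes FIP200, the large scaffold of the same complex, and had 2980 wild-type and 3590 Ucp1-KO counts, with a log2 ratio of 0.57 [0.47 to 0.67]. Atg101 thus made up 11.8% [11.0 to 12.6] of the counts of the complex in wild-type and 4.45% [3.89 to 5.07] in Ucp1-KO, whereas Rb1cc1 went from 24.0% [23.0 to 25.1] to 37.2% [35.8 to 38.5]. The paired kinase genes were both below 0, with Ulk2 at -0.42 [-0.53 to -0.32] and Ulk1 at -0.12 [-0.24 to -0.01]. Atg13, the adaptor, was at 0.16, a value that counting error does not separate from 0.

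In the lipid kinase complex, which makes the phosphatidylinositol 3-phosphate that recruits later factors, 3 of 4 genes were below 0. Pik3c3, which encodes the catalytic subunit VPS34, had 1740 wild-type and 899 Ucp1-KO counts, a log2 ratio of -0.65 [-0.82 to -0.49] or 63.6% of the wild-type level. Its share of the counts of the complex was 25.1% [23.7 to 26.6] in wild-type and 17.7% [16.3 to 19.3] in Ucp1-KO. Atg14, the subunit that directs the complex to autophagy, was at -0.30 [-0.52 to -0.08]. Becn1, the scaffold Beclin 1, had 3058 and 2477 counts and a log2 ratio of -0.0043 [-0.11 to 0.10]. Uvrag, which encodes the alternative subunit to ATG14, was the highest of the complex, with 1289 and 1136 counts and a log2 ratio of 0.12 [-0.05 to 0.28]. For Becn1 and Uvrag no difference was detectable at this depth with the size factors used here. Total counts placed them at -0.31 and -0.19. Becn1 shares 48.3% of its 50-base stretches with Cntd1 on the opposite strand, which had 35 and 37 counts.

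The genes for membrane supply and lipid transfer were close together, from -0.26 to 0.20. Wipi2, a reader of phosphatidylinositol 3-phosphate, was the highest, with 7423 wild-type and 6913 Ucp1-KO counts and a log2 ratio of 0.20 [0.13 to 0.26]. Atg9a, which encodes a membrane-spanning protein on vesicles that seed the autophagosome, was the lowest, with 2414 and 1635 counts and a log2 ratio of -0.26 [-0.39 to -0.13]. Exons of Atg9a overlap 924 bases of Ankzf1 on the opposite strand, which had 1432 and 469 counts and a log2 ratio of -1.31. They also overlap 1833 bases of Gm29253 on the same strand, 25.2% of the Atg9a exons. Atg9a shares 57.9% of its 50-base stretches with other genes, mainly Gm29253. Gm29253 is not listed by that symbol in the deposited counts, so whether it took reads from Atg9a is not known. The counting was not stated to use strand, so reads in the Ankzf1 overlap leave the Atg9a value uncertain. The lipid transfer genes Atg2a and Atg2b and the second reader Wipi1 lay between -0.18 and 0.08.

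The 10 conjugation genes had a median of 0.09 and lay on both sides of 0. Atg10, the E2-like enzyme of the ATG12 system, was the highest, with 814 wild-type and 954 Ucp1-KO counts and a log2 ratio of 0.53 [0.33 to 0.72]. Atg12, the ubiquitin-like protein that ATG10 transfers, had 2349 and 2707 counts and a log2 ratio of 0.50 [0.39 to 0.62]. Atg3, the E2-like enzyme of the ATG8 system, had 3000 and 3375 counts and a log2 ratio of 0.47 [0.37 to 0.57]. Atg7, the E1-like enzyme that serves both systems, went the other way, with 2461 and 1538 counts and a log2 ratio of -0.38 [-0.51 to -0.25]. The 4 Atg4 genes encode the proteases that prime ATG8 proteins and also release them from membranes. Atg4c was the lowest of the 10, with 820 and 481 counts and a log2 ratio of -0.47 [-0.71 to -0.24], Atg4a followed at -0.28, and Atg4b and Atg4d were at 0.05 and 0.09. Atg4a shares 62.8% of its 50-base stretches with the pseudogene Atg4a-ps, so its counts are uncertain. Atg5 and Atg16l1, which with ATG12 form the complex that places ATG8 proteins on the membrane, were at 0.15 and 0.09, and neither differed from 0 beyond counting error.

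**Figure D2:**
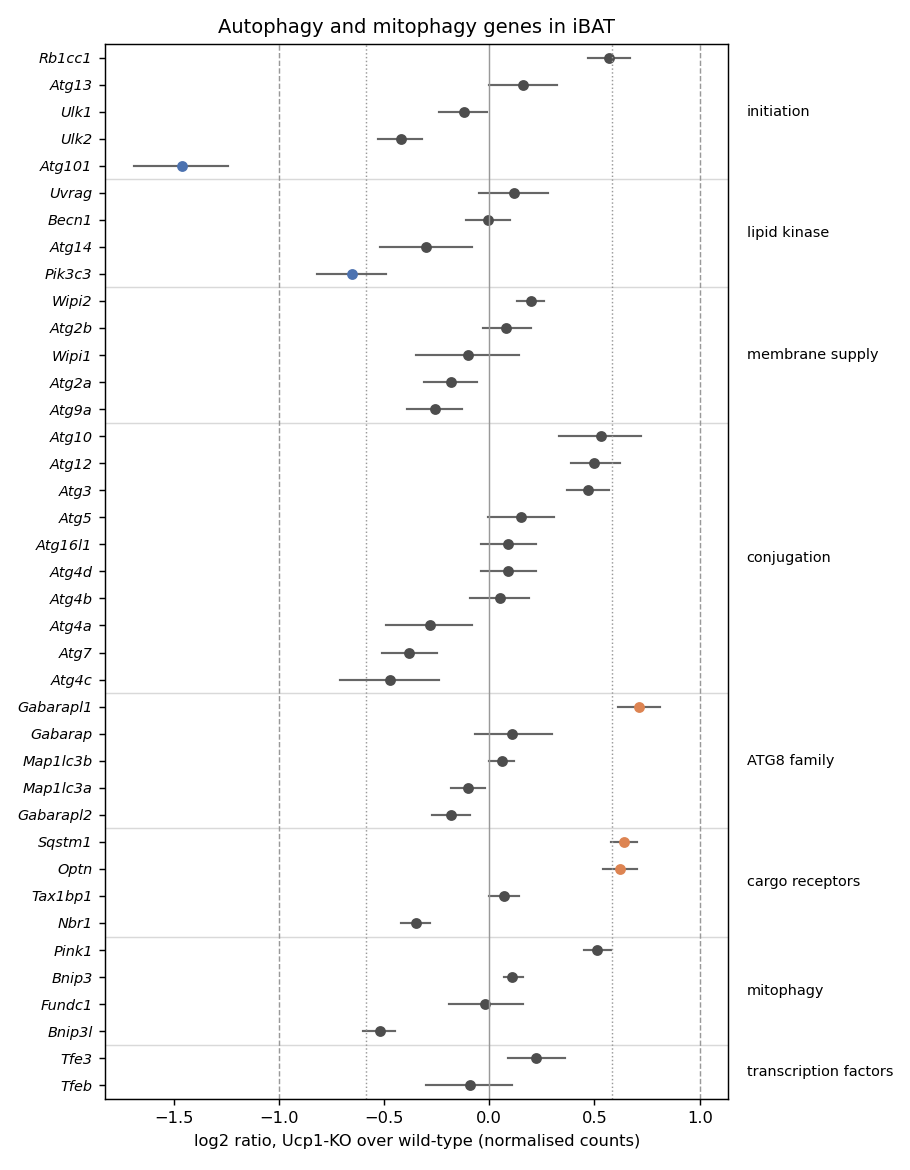
Log2 ratio, Ucp1-KO over wild-type, of each of the 39 genes, grouped by role, with bars for the exact 95% counting interval; points past the 1.5-fold rule are orange where higher and blue where lower, dotted lines mark 1.5-fold and dashed lines 2-fold. Atg101 alone lies past the 2-fold line, and every group except the lipid kinase genes and the transcription factors holds genes with the whole interval above 0 and others with it below 0.

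Among the ATG8 proteins, which are anchored in the autophagosome membrane, 1 of 5 genes was past the 1.5-fold rule, on the higher side. The shares were 15.4% of all genes and 9.87% of those with a mean of at least 500. With total counts that gene, Gabarapl1, was at 0.40 and no longer past the rule. Gabarapl1 had 2673 wild-type and 3551 Ucp1-KO counts, a log2 ratio of 0.71 [0.61 to 0.81] and the highest of all 39 genes. The others lay between -0.18 and 0.11. Gabarapl2 was the lowest, with 4352 and 3121 counts and a log2 ratio of -0.18 [-0.27 to -0.09]. Map1lc3b, the source of the LC3B protein used as the standard autophagosome marker, had 9056 and 7678 counts and a log2 ratio of 0.06. Gabarapl1 went from 11.5% [10.9 to 12.1] to 17.8% [17.0 to 18.6] of the counts of the family, whereas Map1lc3b stayed at 38.8% [38.0 to 39.7] and 38.5% [37.5 to 39.4]. In GRCm39 Gabarapl1 spans positions 129509725 to 129520544 of chromosome 6, plus strand. It shares 23.2% of its 50-base stretches with the opposite-strand transcript 1700101I11Rik, which had 16 and 65 counts and a log2 ratio of 2.28. The overlap covers 31.0% of the Gabarapl1 exons, and reads in it may have been counted for either gene or for neither, so the Gabarapl1 value is uncertain to that extent.

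The cargo receptors had the highest median of the 8 groups, 0.34 over 4 genes, and were also divided. Sqstm1 encodes p62, a receptor for ubiquitin-tagged cargo that is itself degraded with it, and had 7671 wild-type and 9705 Ucp1-KO counts. Its log2 ratio was 0.64 [0.58 to 0.70]. Optn, which encodes optineurin, a receptor that also acts on damaged mitochondria, had 5009 and 6253 counts and a log2 ratio of 0.62 [0.54 to 0.70]. Nbr1, a receptor built much like p62, was lower instead, with 8596 and 5476 counts and a log2 ratio of -0.35 [-0.42 to -0.28]. Of the counts of the 4 receptors, which are not adjusted for transcript length, Nbr1 took 30.4% [29.6 to 31.1] in wild-type and 20.0% [19.3 to 20.7] in Ucp1-KO. Sqstm1 moved from 27.1% [26.4 to 27.8] to 35.4% [34.6 to 36.2], and Optn from 17.7% [17.1 to 18.3] to 22.8% [22.1 to 23.5]. Tax1bp1, a further ubiquitin-binding receptor, was at 0.07. Sqstm1 lies on chromosome 11 from 50089572 to 50107684 and Optn on chromosome 2 from 5022703 to 5068945, both on the minus strand of GRCm39. Sqstm1 overlaps 1412 exonic bases of Mrnip on the opposite strand, which had 110 and 35 counts and a log2 ratio of -1.34.

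The mitophagy genes lay on both sides of 0, with a median of 0.05. Pink1 encodes the kinase that accumulates on depolarised mitochondria and had 7771 wild-type and 9022 Ucp1-KO counts, a log2 ratio of 0.51 [0.45 to 0.58]. Bnip3l encodes NIX, a receptor on the outer mitochondrial membrane, and had 8216 and 4642 counts and a log2 ratio of -0.52 [-0.60 to -0.45]. Its close relative Bnip3, the gene with the most counts of the 39, had 16420 and 14416 counts and a log2 ratio of 0.11 [0.07 to 0.16]. Of the counts of the pair, Bnip3 took 66.7% [65.8 to 67.5] in wild-type and 75.6% [74.8 to 76.5] in Ucp1-KO. Fundc1, a further receptor of the outer membrane, was at -0.02 [-0.19 to 0.16]. NIX is also known for clearing mitochondria from maturing red blood cells. All 6 erythroid genes looked at after these values were seen were lower in Ucp1-KO, with a median log2 ratio of -0.53 and 0.105% against 0.0602% of the counts, and their part in the Bnip3l value was not tested. Exons of Pink1 overlap 1514 bases of Ddost on the opposite strand, which had 3358 and 2237 counts and a log2 ratio of -0.29. Bnip3l shares 25.0% of its 50-base stretches with Gm58964 and Bnip3 28.6% with other genes, so the counts of both are uncertain to that extent.

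**Figure D3:**
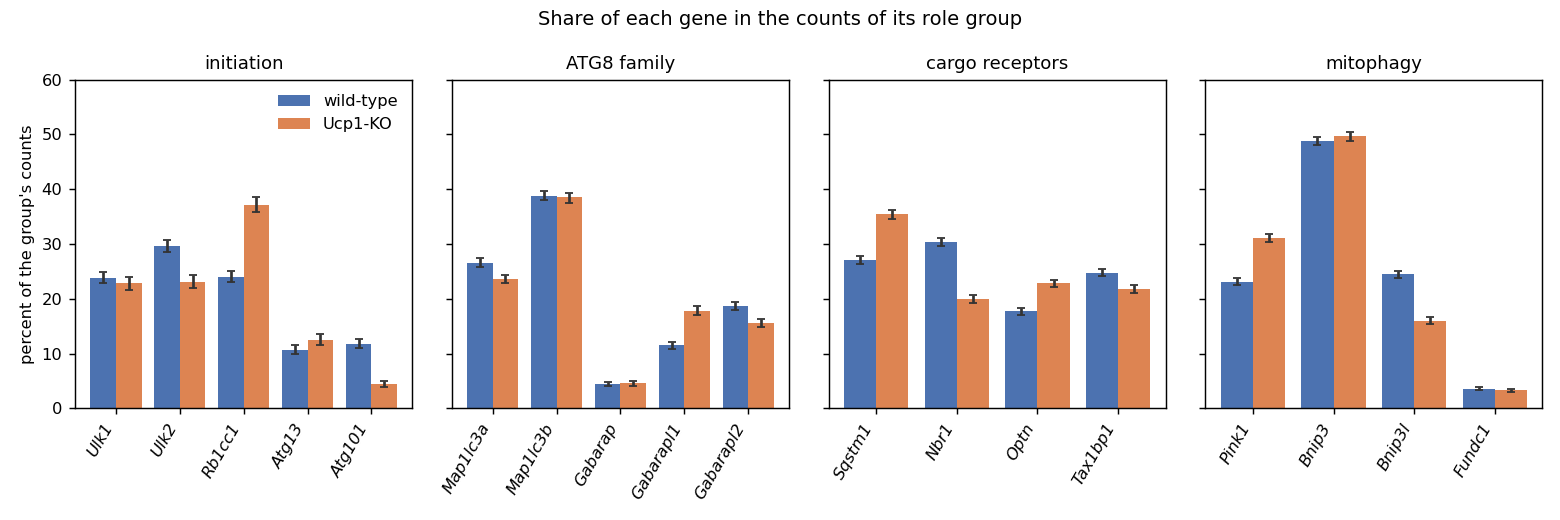
Share of each gene in the summed counts of its role group, in percent, for the initiation complex, the ATG8 family, the cargo receptors and the mitophagy genes; blue bars show the wild-type and orange bars the Ucp1-KO library, with exact 95% binomial intervals for counting error. Gabarapl1, Sqstm1, Optn, Rb1cc1 and Pink1 took a larger share in Ucp1-KO, and Atg101, Nbr1 and Bnip3l a smaller one, while Map1lc3b and Gabarap kept theirs within the intervals.

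TFEB and TFE3 are transcription factors that switch on lysosomal and autophagy genes when they enter the nucleus. Tfeb had 933 wild-type and 710 Ucp1-KO counts and a log2 ratio of -0.09 [-0.30 to 0.11]. No difference was detectable at this depth with the size factors used here, and total counts placed Tfeb at -0.40. Tfe3 had 1817 and 1725 counts and a log2 ratio of 0.22 [0.09 to 0.36]. Transcript counts do not report where these proteins are in the cell.

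Levels were compared between genes as normalised counts per kilobase of the canonical transcript. They covered a 74.0-fold range in wild-type and a 107-fold range in Ucp1-KO, with medians of 528 and 560. The same 3 genes led in both libraries. Map1lc3b was at 9180 normalised counts per kilobase in wild-type and 9580 in Ucp1-KO, Map1lc3a at 6790 and 6350, and Bnip3 at 4060 and 4390. Map1lc3b shares 32.3% of its 50-base stretches with other genes, mainly the pseudogene Gm6055. The upper ranks below them changed. Sqstm1 went from the 6th to the 4th place (2120 to 3290), Pink1 from the 7th to the 5th (1870 to 2670) and Gabarapl1 from the 11th to the 7th (1320 to 2160). Bnip3l went from the 5th to the 10th place (2280 to 1590) and Atg101 from the 14th to the 28th (959 to 347). Atg4c was the lowest in both libraries, at 124 and 89.5 normalised counts per kilobase.

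**Figure D4:**
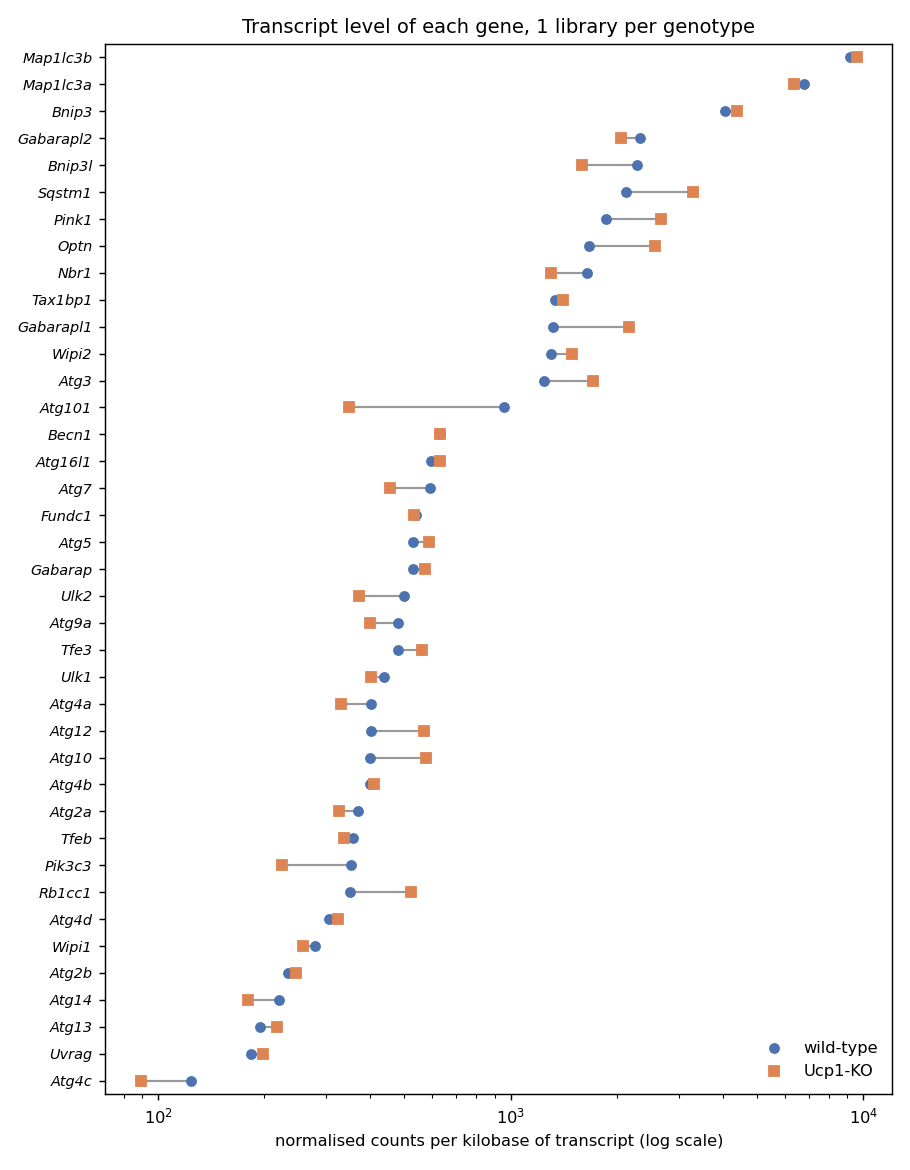
Level of each of the 39 genes in normalised counts per kilobase of canonical transcript, on a log scale and ordered by the wild-type level; blue circles show the wild-type and orange squares the Ucp1-KO library, 1 library each. Most pairs lie close together, and the widest gap is that of Atg101, at 959 in wild-type and 347 in Ucp1-KO.

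Upstream stretches are shown for Gabarapl1, Sqstm1, Optn and Atg101, 4 of the 5 genes past the 1.5-fold rule, and that of Pik3c3 was not used here. Such stretches were to be shown only where 1 of 3 motifs occurred, which none did, so the choice to show them was made after the search. They are the 250 bases before the annotated start in the RefSeq promoter table, build GRCm38.p6, 5′ to 3′ on the strand of the gene, with capitals where the GC box GGGCGG occurs on either strand. Gabarapl1 is from chr6:129532942-129533191 on the plus strand, Sqstm1 from chr11:50210821-50211070 on the minus strand, Optn from chr2:5064118-5064367 on the minus strand and Atg101 from chr15:101284051-101284300 on the plus strand.
Gabarapl1: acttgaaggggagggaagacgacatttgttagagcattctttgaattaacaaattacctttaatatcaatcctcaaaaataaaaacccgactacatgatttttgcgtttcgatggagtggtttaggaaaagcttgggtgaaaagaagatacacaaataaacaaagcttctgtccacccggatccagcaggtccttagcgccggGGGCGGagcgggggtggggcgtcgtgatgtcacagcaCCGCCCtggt
Sqstm1: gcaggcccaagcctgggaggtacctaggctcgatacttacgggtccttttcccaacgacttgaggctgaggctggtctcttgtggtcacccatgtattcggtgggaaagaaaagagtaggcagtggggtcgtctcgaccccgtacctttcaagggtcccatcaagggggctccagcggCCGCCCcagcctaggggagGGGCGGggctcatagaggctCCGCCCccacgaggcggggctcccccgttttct
Optn: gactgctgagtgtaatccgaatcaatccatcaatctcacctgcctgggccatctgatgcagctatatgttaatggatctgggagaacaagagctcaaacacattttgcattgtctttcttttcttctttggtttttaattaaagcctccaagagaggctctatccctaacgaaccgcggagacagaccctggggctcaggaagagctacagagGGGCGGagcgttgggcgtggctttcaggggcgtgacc
Atg101: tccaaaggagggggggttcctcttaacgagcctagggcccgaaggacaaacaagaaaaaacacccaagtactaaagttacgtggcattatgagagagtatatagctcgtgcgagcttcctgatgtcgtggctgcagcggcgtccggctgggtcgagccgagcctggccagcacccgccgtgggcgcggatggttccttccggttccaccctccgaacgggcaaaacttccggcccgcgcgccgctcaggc
The first search was for the E-box core CACGTG, the ATF4 and C/EBP element TGATGNAA and the forkhead motif GTAAACA on both strands. None of these letters occurred in the 4 stretches. The table held 39 such windows for 32 of the genes, some with several starts, and CACGTG occurred in 4 of them (10.3%), those of Atg3, Atg5, Atg7 and Bnip3, beside 6.02% of all 32851 windows. TGATGNAA and GTAAACA occurred in 0 of the 39, beside 3.45% and 3.17% of all windows. The GC box and the CCAAT box were added after that search. GGGCGG occurred in 24 of the 39 windows (61.5%) beside 32.7% of all, and in the stretches of Gabarapl1, Sqstm1 and Optn but not of Atg101. CCAAT occurred in 11 of the 39 windows (28.2%) beside 33.8% of all, and in none of the 4 shown. The windows of all genes were not matched for expression, and whether any of these shares is particular to the 39 genes was not tested. A match of letters is a description and not a binding site.

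A wider list of 57 further genes of the pathway, all averaging 10 or more normalised counts, had a median log2 ratio of 0.12, with 34 above 0 and 23 below. At the 1.5-fold rule 5 were higher (8.77%) and 3 lower (5.26%), again beside 15.4% and 17.9% of all genes. Among the 8557 genes with a mean of at least 500, 9.87% were higher and 9.23% lower by that rule. Of the 57 genes 0 were at least 2-fold higher, beside 7.42% of all genes and 2.61% of the 8557. Only Ddit4 and Atg9b were at least 2-fold lower, beside 9.55% of all genes and 3.31% of the 8557. Both passed the 2-fold rule under the 4 scalings. Sesn1 joined them on the lower side when scaled to total counts, where 14.9% of all genes were lower by that rule. The balance of the list depended on the scaling, since total counts placed its median at -0.19, with 19 above 0 and 38 below. That scaling put 3 of the 57 genes past the 1.5-fold rule on the higher side and 11 on the lower side. The shares of all genes under it were 8.85% higher and 30.6% lower.

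The 9 genes of mitophagy on this list ran from -0.33 to 0.37, with a median of 0.25, and none was past the 1.5-fold rule. With total counts the median was -0.06, beside -0.31 for all genes. Under that scaling Fkbp8 and Nipsnap1 were past that rule at -0.62 and -0.64, as were 30.6% of all genes on the lower side. Both were named for this reason after their values were seen. The highest were Pgam5, a mitochondrial phosphatase, with 1771 wild-type and 1857 Ucp1-KO counts and a log2 ratio of 0.37 [0.23 to 0.50], and Marchf5, a ubiquitin ligase of the outer mitochondrial membrane, with 12254 and 12773 counts and a log2 ratio of 0.36 [0.31 to 0.41].

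Of the 12 genes for upstream control of initiation, 3 were past the 1.5-fold rule on the higher side and 2 on the lower side. The shares were 15.4% and 17.9% of all genes, and 9.87% and 9.23% of those with a mean of at least 500. Flcn encodes folliculin, which acts at the lysosome on the branch of mTORC1 signalling that keeps TFEB and TFE3 in the cytoplasm, and had 8953 wild-type and 14425 Ucp1-KO counts. Its log2 ratio was 0.99 [0.93 to 1.04]. Fnip1, whose product binds folliculin and which was named after its value was seen, had 3384 and 5224 counts and a log2 ratio of 0.93 [0.84 to 1.02]. Ddit4 encodes REDD1, a stress-induced inhibitor of mTORC1, and had 4332 and 1701 counts and a log2 ratio of -1.05 [-1.17 to -0.93]. The sestrin genes Sesn2 and Sesn1, likewise named after their values were seen, lay on opposite sides at 0.66 [0.45 to 0.87] and -0.73 [-0.94 to -0.52]. With total counts Sesn2 was at 0.35 and no longer past the 1.5-fold rule, whereas Flcn, Fnip1, Ddit4 and Sesn1 still were. Under that scaling 8.85% of all genes were higher and 30.6% lower by that rule.

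**Figure D5:**
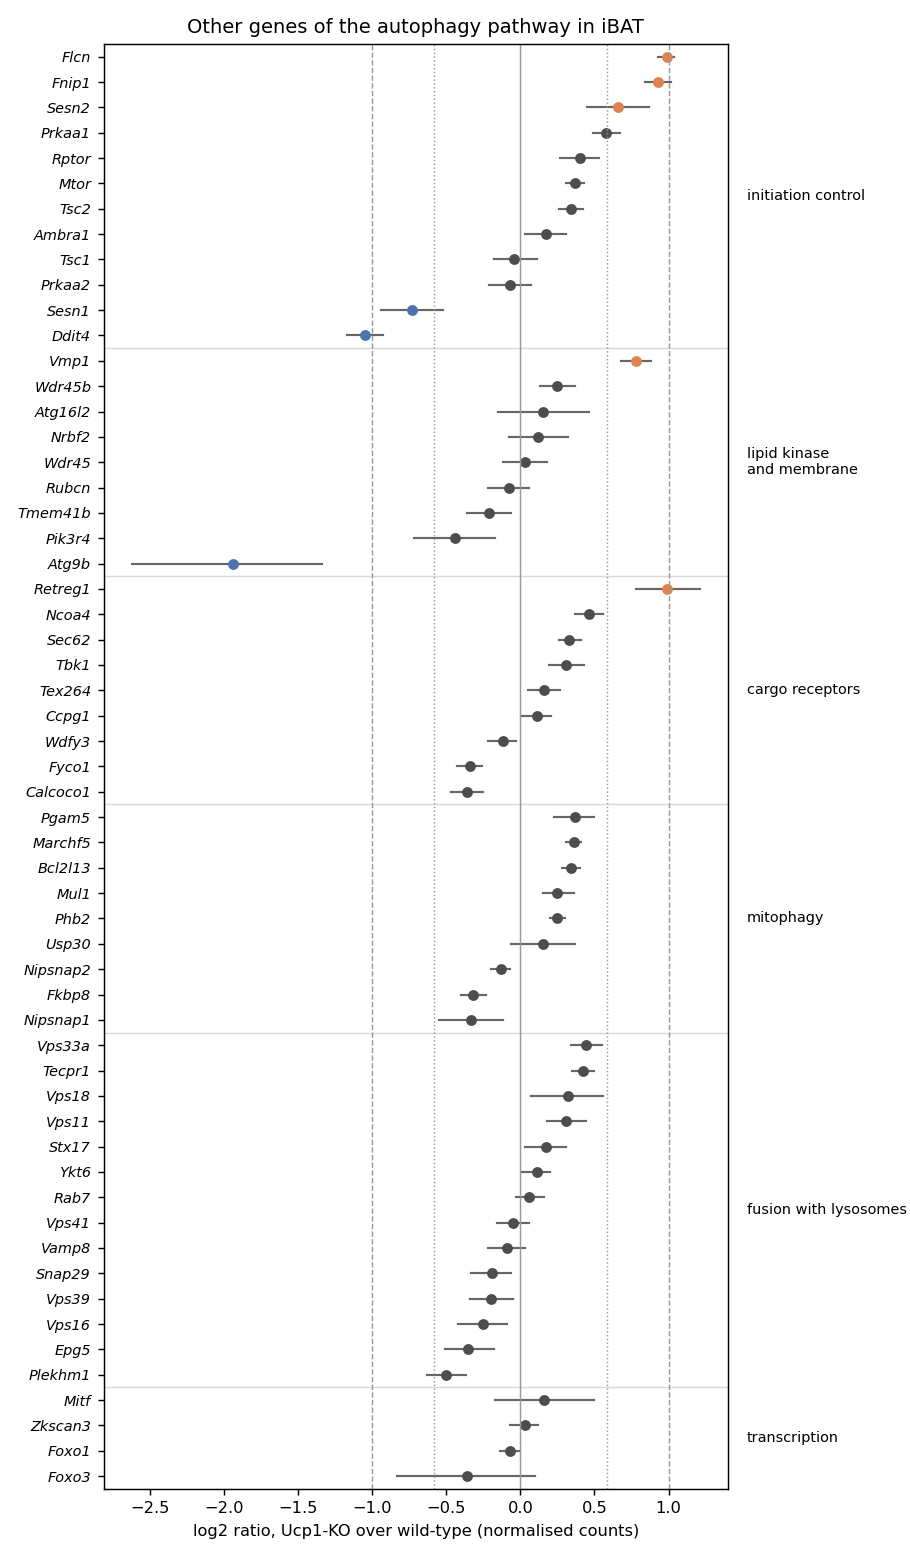
Log2 ratio, Ucp1-KO over wild-type, of 57 further genes of the autophagy pathway, grouped by role, with exact 95% counting intervals; points past the 1.5-fold rule are orange where higher and blue where lower, dotted lines mark 1.5-fold and dashed lines 2-fold. Flcn and Retreg1, both at 0.99, and Atg9b at -1.94 lie at the ends. With the median-of-ratios scaling plotted, none of the 14 genes for fusion with lysosomes or the 4 transcription factors is past the 1.5-fold lines. Plekhm1, Epg5 and Foxo3 are with total counts, where 30.6% of all genes are at least 1.5-fold lower.

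Among further genes for lipid kinase and membrane, Vmp1, a scramblase of the endoplasmic reticulum needed for autophagosome formation, had 2848 wild-type and 3970 Ucp1-KO counts and a log2 ratio of 0.78 [0.68 to 0.88]. Atg9b, the relative of Atg9a, had 248 and 52 counts and a log2 ratio of -1.94 [-2.62 to -1.34]. Its exons overlap 297 bases of the endothelial gene Nos3 on the opposite strand, which had 2482 and 1563 counts and a log2 ratio of -0.37, beside the lower endothelial markers above, and the part of either in the Atg9b value was not tested. Among further receptors, Retreg1, which directs pieces of endoplasmic reticulum to autophagy, had 579 and 936 counts and a log2 ratio of 0.99 [0.78 to 1.21]. Ncoa4, the receptor for ferritin, had 3252 and 3647 counts and a log2 ratio of 0.46 [0.37 to 0.56], with 48.4% of its 50-base stretches shared with other genes. Of the genes for fusion with lysosomes, which had a median of 0.0084, Plekhm1, an adaptor between late endosomes and ATG8 proteins, was the lowest at -0.50 [-0.63 to -0.37] and Vps33a, a subunit of the tethering complex HOPS, the highest at 0.44 [0.34 to 0.55]. Of the 4 further transcription factors, Foxo3 with 207 and 131 counts was at -0.36 [-0.83 to 0.10] and Mitf with 321 and 292 counts at 0.16 [-0.17 to 0.50]. Both intervals hold 0 with the size factors used here, whereas with total counts Foxo3 was at -0.67 and Mitf at -0.14.

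Beside other routes of protein turnover, the median of 0.06 over the 39 autophagy and mitophagy genes was below that of 26 lysosomal genes (0.16) and of 31 proteasome genes (0.20), of which 29 were above 0. With total counts these medians were -0.25, -0.15 and -0.11 in the same order, and 7 of the 31 proteasome genes and 6 of the 26 lysosomal genes were above 0. With median-of-ratios factors the median of the 39 was also below that of 19 genes of the integrated stress response (0.66, or 0.35 with total counts), a list that shares Ddit4 and Sesn2 with the wider pathway list. With 1 library per genotype these medians are descriptions, and the differences between the lists were not tested.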

How the data were processed

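RNA of iBAT was extracted with the Promega SV Total RNA kit and made into directional, poly-A enriched libraries, 1 per genotype. The deposited values are counts, whole numbers of reads per gene that the authors made with featureCounts and did not normalise. The submitters' processing notes name Trim Galore, HISAT2 and build mm39, and the study analysed its counts with DESeq2. The annotation and the settings for strand and for multiply matching reads are not given in the sources used here. Low counts were mostly even (70.7% and 73.4% of genes with 1 to 10 counts, against 49.9% and 50.2% at 100 to 1000), so intervals were computed on read pairs, the counts divided by 2.

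For scaling, DESeq2 1.42.0 gave median-of-ratios size factors of 1.11 (wild-type) and 0.901 (Ucp1-KO), and genes averaging 10 or more normalised counts were examined. Ratios and shares have exact binomial (Clopper-Pearson) 95% intervals. Intervals cover counting error only, as reads here carry no molecular identifier, and leave out differences between animals. With 1 library per genotype, sizes of 2-fold and 1.5-fold stood in for a test. The calculations were tested on simulated data. Genes without a symbol (1319) held 0.156% and 0.121% of the counts and were kept in the scaling. Transcript lengths, positions and overlaps came from GENCODE mouse release M39 on GRCm39, and upstream sequences from RefSeq.

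The genes and lists were chosen with earlier results of these data known. Counts are given for each gene at least 1.5-fold different and for the extremes of each role. Of the wider list, genes at least 2-fold different and up to 2 per role with the largest log2 ratio in size were named. The result of 1 gene of that list is not reported here, and the list's counts leave it out. The background at a mean of at least 500, the shares, the erythroid list and the motifs GGGCGG and CCAAT were added after the counts were seen. Alternatives covered scaling (TMM of edgeR, total counts, total counts without the mitochondrial genome), a pseudocount of 5, the filter and the counting interval.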

Additional observations from a re-analysis of the deposited data

How the results depend on the processing

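The numbers of genes past either size rule did not change, and the median log2 ratio of the 39 genes was 0.05 or 0.06, with TMM factors, with totals that leave out the mitochondrial genome, with a pseudocount of 5, with no filter and with a minimum mean of 50. Scaling to total counts left 0 genes at least 1.5-fold higher, placed 9 at least 1.5-fold lower and the median at -0.25, beside 8.85% higher and 30.6% lower of all genes. Under it the role medians became -0.43 for initiation, -0.46 for the lipid kinase, -0.41 for membrane supply, -0.22 for conjugation, -0.25 for the ATG8 family, 0.04 for cargo receptors, -0.26 for mitophagy and -0.24 for the transcription factors, since this scaling moves every gene by the same 0.31. Where the whole counting interval had to lie beyond 1.5-fold, 1 gene was higher (Gabarapl1) and 1 lower (Atg101). The share of all genes under that rule was not computed, so these counts have no background beside them. No paired analysis was possible because wild-type and Ucp1-KO are 1 library each, nor could a library be left out. Depth limits the values of low genes such as Foxo3 and Atg9b.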
